A study of Mus musculus with 2 samples.

Results

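Single-exon annotated transcripts of protein-coding genes were examined in long-read RNA sequencing of mouse hippocampus. A member is a transcript model of GENCODE M21 that has 1 exon, belongs to a gene the annotation calls protein-coding, and was assigned at least 1 read in either library. Of 5105 such models from 4587 genes, 957 had reads, 578 of them in both libraries. They are a small part of the 23989 annotated transcripts with reads. Members were separated by the other models of their gene. In 323 the gene had no spliced model in the deposited annotation of either library, and these are called intronless below. In 588 the gene had an annotated spliced model. In the remaining 46 the gene was intronless in GENCODE M21 and its only spliced models were new ones built from these reads. Taken by any spliced model, new or annotated, 634 members would stand with the spliced genes, and the 46 are given separately here.

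The RNA came from the hippocampus ("layer of hippocampus" in the labels) of 14-day-old males of B6CASTF1/J, an F1 hybrid between C57BL/6J and CAST/EiJ. No treatment or targeted allele is named. The 2 libraries are biological replicates 1 and 2 of this single group, each made from 2 µg of RNA pooled from 3 males, so no conditions can be contrasted and a difference between the libraries may be technical. The labels of the samples name different animals for each library, whereas the text on the experiment repeats those of replicate 1.

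Most mammalian genes are interrupted by introns, but a minority make their mRNA from a single exon. Many of these arose by the copying of a spliced mRNA back into the genome, and others belong to old families, among them histones, SOX and POU transcription factors, many G protein-coupled receptors and the mRNAs of mitochondrial DNA. In a gene that is otherwise spliced, a single-exon model can be a complete unspliced mRNA, or a transcript that keeps sequence of an intron. Annotators may label the latter retained intron. Most mRNAs carry the signal AATAAA or ATTAAA shortly before the cleavage site. The histone mRNAs of dividing cells end instead in a stem-loop and carry no poly(A) tail.

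In these files reads are credited to annotated models, so members are shown here by their annotated ends. The last 30 bases of abundant members are printed from the GENCODE M21 transcripts (mm10), 5′ to 3′ on the strand of the transcript, with AATAAA or ATTAAA in capitals where the window holds it. The first 6 are from intronless genes and show windows with and without a signal.
Jund-201, chr8:70700587-70700616, plus strand: tgtgttttcagtaaagtcttcgttacgcca
Ndn-201, chr7:62350233-62350262, plus strand: acactttagcagAATAAAcccttatcatgc
Eid1-201, chr2:125674756-125674785, plus strand: tggcgatAATAAAttttcttgttctgtgta
Cldn5-201, chr16:18778233-18778262, plus strand: ttgctcagtaaatggtttgaacactttcaa
Pou3f1-201, chr4:124660626-124660655, plus strand: tttattactcacataaacatgtaccccagg
Olig1-201, chr16:91271904-91271933, plus strand: aaatcacaaAATAAAacgtcaacagttgaa

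The next 6 are single-exon models of genes with annotated spliced models. Nap1l5 and Hspa2 are coding models, and the other four carry the annotators' label retained intron. They show how unlike the ends of that type are, since Cbx6-208 and Gnao1-212 hold no signal and have 21 A among 30 bases each.
Nap1l5-201, chr6:58905233-58905262, minus strand: tcaaaAATAAAaaaatccttgttattctga
Hspa2-202, chr12:76406905-76406934, plus strand: cacatttaaagtaaagctgaaattgatctc
Pgp-202, chr17:24472833-24472862, plus strand: agttctcagagcAATAAAagatatctatcc
Ss18l2-207, chr9:121712791-121712820, plus strand: aaatatttattAATAAAacagatcccacgg
Cbx6-208, chr15:79826100-79826129, minus strand: gaaaaaaaaagaaaaaaatttttaaaaagg
Gnao1-212, chr8:93969181-93969210, plus strand: aaagacaaaacacaaaaaatttaaaaatac

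Histones can hold either kind of end. In the next 3 windows the capitals mark a match to the stem-loop pattern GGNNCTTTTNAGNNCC, in which N is any base.
Hist2h2aa2-201, chr3:96239777-96239806, minus strand: ctaaaaaGGCTCTTTTCAGAGCCacccact
Hist3h2a-201, chr11:58955165-58955194, plus strand: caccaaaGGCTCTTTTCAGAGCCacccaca
Hist1h1c-201, chr13:23739505-23739534, plus strand: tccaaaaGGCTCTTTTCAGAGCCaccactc

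Replicate 1 held 821324 reads on mouse models and replicate 2 held 743862, spike-ins left out. Levels are given as CPM, reads per 1000000 of these mouse reads. A long read is counted once whatever the length of its transcript, so CPM was not divided by length. Whether short and long transcripts were recovered alike was not tested, and levels of genes of unlike length are given side by side with that limit. Where no read was found, up to 3 reads are allowed by chance, equal to 3.65 CPM (replicate 1) or 4.03 CPM (replicate 2). All 23 markers of cell types looked up had reads in both libraries. Those of hippocampal pyramidal neurons (Wfs1, Pou3f1, Neurod6, Mpped1) lay between 136.4 and 248.4 CPM, and C1ql2 of dentate granule cells was at 108.4 and 149.2 CPM. The oligodendrocyte gene Mbp was at 3746 CPM in replicate 1 and 1687 in replicate 2, and the choroid plexus gene Ttr at 193.6 and 87.4 CPM. Kl, also looked up for choroid plexus, had only 2 reads in each library (2.44 and 2.69 CPM). In bulk tissue, fewer cells of a type and less RNA per cell cannot be told apart.

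All members together held 13539 reads in replicate 1 and 12189 in replicate 2, or 1.64% ± 0.00695 (SD, n = 2) of mouse reads. Intronless genes held the largest part, with 7665 and 6987 reads, or 0.936% ± 0.00427 (SD, n = 2) of mouse reads. Replicate 1 stood at 0.933% (Wilson 95% interval 0.913 to 0.954) and replicate 2 at 0.939% (0.918 to 0.962). Each share lies inside the interval of the other library, and the difference between them was not tested. Genes with annotated spliced models put 4074 and 3578 reads on their single-exon models, 0.489% ± 0.0106 of mouse reads. Genes with only new spliced models put 1800 and 1624 reads there, 0.219% ± 0.000593.

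Detection differed between the classes. Of 1341 annotated single-exon models in intronless genes, 323 had reads (24.1%), and 249 of these had them in both libraries. Of 3703 in genes with annotated spliced models, 588 had reads (15.9%), 284 of them in both. Much of the second class is sensory receptors: without their list, chosen as a check after seeing the data, 323 of 1103 (29.3%) and 586 of 2624 (22.3%) had reads. By comparison, 21069 of 96633 multi-exon models of protein-coding genes had reads (21.8%). A single read in all was the whole evidence for 57 intronless members (17.7%), for 247 members in spliced genes (42.0%) and for 22.1% of multi-exon models with reads. In intronless genes detected models were the longer ones, with a median length of 2144 bases for models with reads and 949.5 bases for those without. In genes with annotated spliced models these medians were 2292 and 1241 bases, and for multi-exon models 2433 and 920 bases. By type within the spliced genes, they were 2493 and 948 bases for coding models, but 2286 and 2414 bases for retained introns, which went the other way. The longest abundant members (at least 20 reads) were Paqr9-201 of 8367 bases, with 37 and 32 reads, and Purb-201 of 8319 bases, with 157 and 136 reads.

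The most abundant intronless mRNA was that of Jund, a subunit of the transcription factor AP-1, followed by Ndn, which encodes the MAGE-family protein necdin and is expressed from the paternal allele. Jund-201 (1668 bases, chr8:70698949-70700616) had 494 reads in replicate 1 and 455 in replicate 2, 606.6 CPM ± 7.22 (SD, n = 2). Ndn-201 (3694 bases, chr7:62346569-62350262) had 478 and 414 reads, 569.3 CPM ± 18.0. These 2 levels stood above those of all other nuclear members in both libraries.

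Eid1, an inhibitor of the coactivators CBP and p300, had 375 and 280 reads, 416.5 CPM ± 56.7. Cldn5, the claudin of endothelial tight junctions, had 302 and 239 reads, 344.5 CPM ± 32.8. Replicate 1 was the higher of the libraries for both, with unadjusted Fisher p = 0.0152 for Eid1 and 0.121 for Cldn5, and neither passed after adjustment over all annotated models. The endothelial markers Flt1 and Cdh5 were far lower, Flt1 at 19.5 and 21.5 CPM and Cdh5 at 4.87 and 2.69 CPM. Sowaha, an ankyrin repeat protein gene, had 193 and 198 reads (250.6 CPM ± 22.1), and Fjx1, a relative of the fly four-jointed kinase, had 174 and 165 reads (216.8 CPM ± 7.04). Pcbp1, an RNA-binding protein of the poly(C)-binding family and itself a copy of a spliced mRNA, had 163 and 128 reads, 185.3 CPM ± 18.7.

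Lower in that order stood Sephs2, the enzyme that makes selenophosphate, at 163.1 CPM ± 5.09, and Cenpb, a centromere protein, at 158.3 CPM ± 32.8. Among genes whose only spliced models were new, Pnmal2 of the paraneoplastic Ma antigen family had 184 and 217 reads (257.9 CPM ± 47.9) and Tspyl1 of the nucleosome assembly family had 211 and 165 (239.4 CPM ± 24.8). Purb, a single-stranded DNA and RNA binding protein, was at 187.0 CPM ± 5.89. The spread between the libraries was as large as the steps between neighbours from Pnmal2 to Fjx1 and from Purb to Cenpb. The order within those stretches is therefore not fixed by these data.

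**Figure D1:**
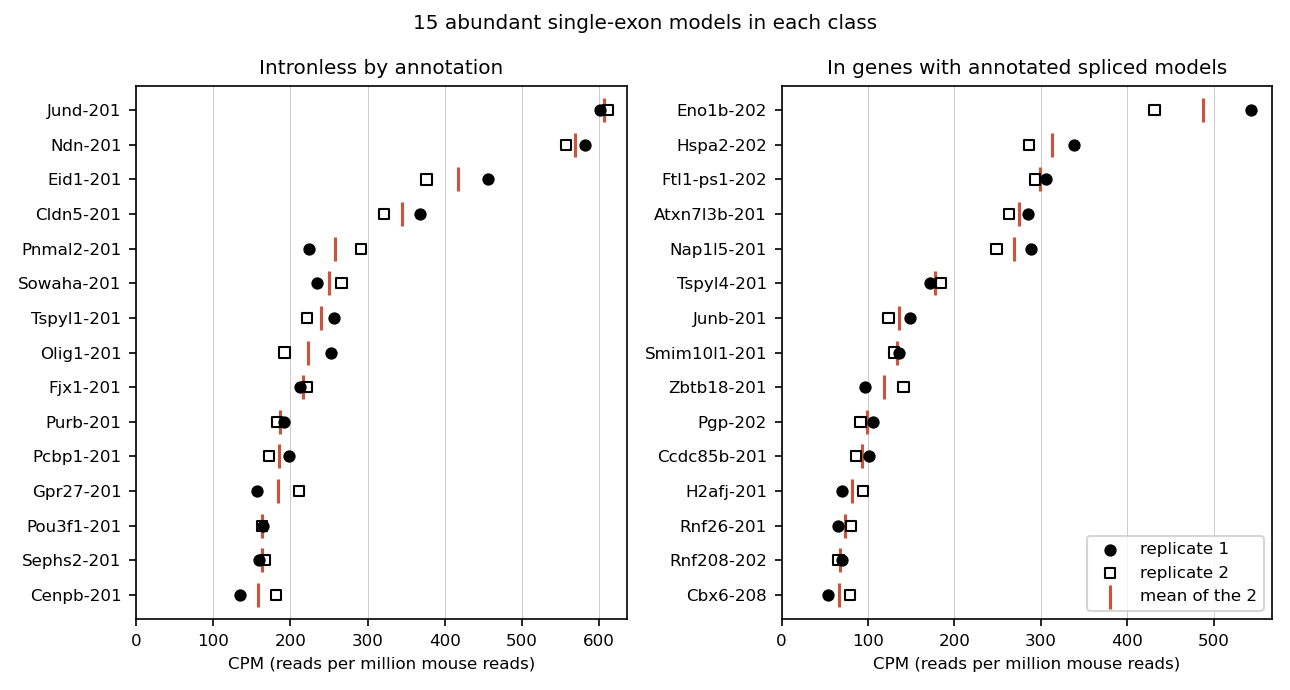
Level of 15 abundant nuclear single-exon models in genes intronless by annotation (left) and in genes with annotated spliced models (right), in CPM, with replicate 1 as filled circles, replicate 2 as open squares and the mean as a bar. Jund and Ndn lie at 556.6 CPM or above in both libraries and stand apart from the rest of the left panel, where the lowest, Cenpb, is at 135.1 and 181.5 CPM.

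Groups of single-exon models were then described by list, whatever the class of their gene. Genes with annotated spliced models gave 11 of 33 G protein-coupled receptor models, 6 of 9 leucine-rich repeat and adhesion models and 1079 of 1317 sensory receptor models. Members named below from such genes include Junb, Kcnj11, Kcna1, Lrrc4, Ccdc85b and Hspa2. Sox4, Gpr27, Rhob and Rap2b are among those from genes whose only spliced models were new. Transcription factors of the SOX, POU, OLIG, forkhead and other families were detected for 24 of 33 single-exon models, at a summed 866.2 CPM ± 23.4. Olig1, a factor of the oligodendrocyte lineage, led them with 253.2 CPM in replicate 1 and 192.2 in replicate 2. Other oligodendrocyte markers were Mbp at 3746 and 1687 CPM and Olig2 at 121.8 and 117.0 CPM, each lower in replicate 2, and their part in the Olig1 difference was not tested. Pou3f1, a POU factor of pyramidal neurons, had 135 and 121 reads (163.5 CPM ± 1.21). Sox4 had 86 reads in each library and Sox2, a factor of neural stem cells and glia, had 57 and 54. Those with no read included Atoh1, Foxe1, Ferd3l and the single-exon Ascl2 model. Of 8 tested models of this list, 0 passed Fisher's test (Olig1 alone had an unadjusted p under 0.05, 0.0119), with a median log2 ratio of replicate 2 to replicate 1 of 0.08 beside -0.01 for all annotated models tested.

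Immediate early and CEBP genes, many of which respond to signals within minutes to hours, were detected for 10 of 10 models in both libraries. They summed to 975.7 CPM ± 51.0, of which Jund alone held 606.6 CPM, so the sum says little about the other genes of the list. Beside Jund, Junb had 122 and 92 reads (136.1 CPM ± 17.6), Cebpb 56 and 39, and Jun 28 and 22. Ier2 and Cebpd had 36 and 19 reads each. Of 7 tested models, 1 had a log2 ratio above 0, against 48.6% of all 7012 annotated models tested, and the list's median was -0.26. Fisher's test called 0 of the 7, and 0 had an unadjusted p under 0.05.

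Receptors of the G protein-coupled class were detected for 23 of 33 models, mostly at low levels. The orphan receptor gene Gpr27 had 129 and 157 reads (184.1 CPM ± 38.2), and Adra2c, an adrenergic receptor, had 53 and 57 reads (70.6 CPM ± 8.55). The Wnt receptor genes Fzd9, Fzd1 and Fzd2 had 41 and 25, 23 and 13, and 19 and 15 reads. Htr1a, the serotonin receptor that is abundant in hippocampus, had 16 and 15 reads (19.8 CPM ± 0.484). The single-exon models of the adrenergic receptor Adra2b and the muscarinic receptors Chrm3 and Chrm5 had 0 reads, which allows up to 3.65 CPM in replicate 1.

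Beta protocadherins, adhesion proteins of which single neurons express small subsets, were detected for 20 of 22 models, but with only 70 and 54 reads in all (78.9 CPM ± 8.93). Pcdhb9 was the most abundant of them with 13 and 11 reads, and Pcdhb7 had 14 and 8. Pcdhb1 and Pcdhb5 had 0 reads. In the claudin and connexin list 7 of 17 models had reads, and Cldn5 held 302 of its 313 reads in replicate 1 and 239 of its 249 in replicate 2. All 6 models of small GTPases and their regulators had reads, led by Rhob with 77 and 46, Cdk5r2, an activator of the kinase Cdk5, with 47 and 67, and Rap2b with 42 and 54.

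The other lists were smaller or lower. Potassium channel genes were detected for 6 of 6 models with 30 and 67 reads, led by Kcnf1, Kcnj11 (11 and 20) and Kcna1 (7 and 11). Leucine-rich repeat and adhesion proteins were detected for 8 of 9 models with 146 and 92 reads, most of them on Nrarp. Apart from it, Lrrc4 had 10 and 17 reads and Slitrk1, a synaptic adhesion gene, 11 and 12. The list of signalling adaptors and cytosolic regulators was detected for 9 of 10 models with 420 and 362 reads. Fjx1 (174 and 165), Rprml (126 and 95) and Ccdc85b (83 and 64) led it. Fjx1 stood in this list although it is, as given above, a relative of the four-jointed kinase. Ubiquitin ligases and Kelch proteins were detected for 9 of 10 models with 52 reads in each library, led by Kbtbd7 with 28 and 17. Heat shock proteins were detected for 5 of 5 models with 347 and 265 reads, most of them on Hspa2.

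The list of imprinted genes with a single-exon model was detected for 6 of 6 models and held 741 and 636 reads, with 1 of the 6 models (Nap1l5) in a gene that also has annotated spliced models. Ndn and Nap1l5 made up most of these, with Nap1l5-201 at 268.6 CPM ± 28.2. Mkrn3, a neighbour of Ndn, had 23 and 29 reads, Magel2 had 2 and 3, Mcts2 1 and 4, and Peg12 0 and 1. The last 3 lie near the limit of a single read and their levels cannot be ordered. On the X chromosome lay 21 of the 323 intronless members (6.50%), against 3.20% of multi-exon models with reads and 0.680% of members in genes with annotated spliced models. Over all annotated models, with or without reads, the X share was 9.40% in intronless genes and 3.18% for multi-exon models, so the class holds many X-linked genes before detection. The most abundant of them were Rtl8b, Magee1, Rtl8a, Arxes2 and Arxes1, chosen after their values were seen, with means of 118.7, 110.3, 105.4, 94.0 and 91.7 CPM. Rtl8a and Rtl8b have identical coding sequences, as do Arxes1 and Arxes2, so how reads were split within each pair is uncertain.

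Sensory receptors of the nose and tongue served as a list whose genes the hippocampus is not known for. Of 1317 single-exon models of olfactory, vomeronasal, taste and trace-amine receptors, 2 had reads, with 1 read each: Olfr287-205 in replicate 1 and Olfr316-201 in replicate 2. Of 78 models of interferons and keratin-associated proteins, 0 had reads. With 0 reads, up to 3.65 CPM per model is allowed in replicate 1.

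**Figure D2:**
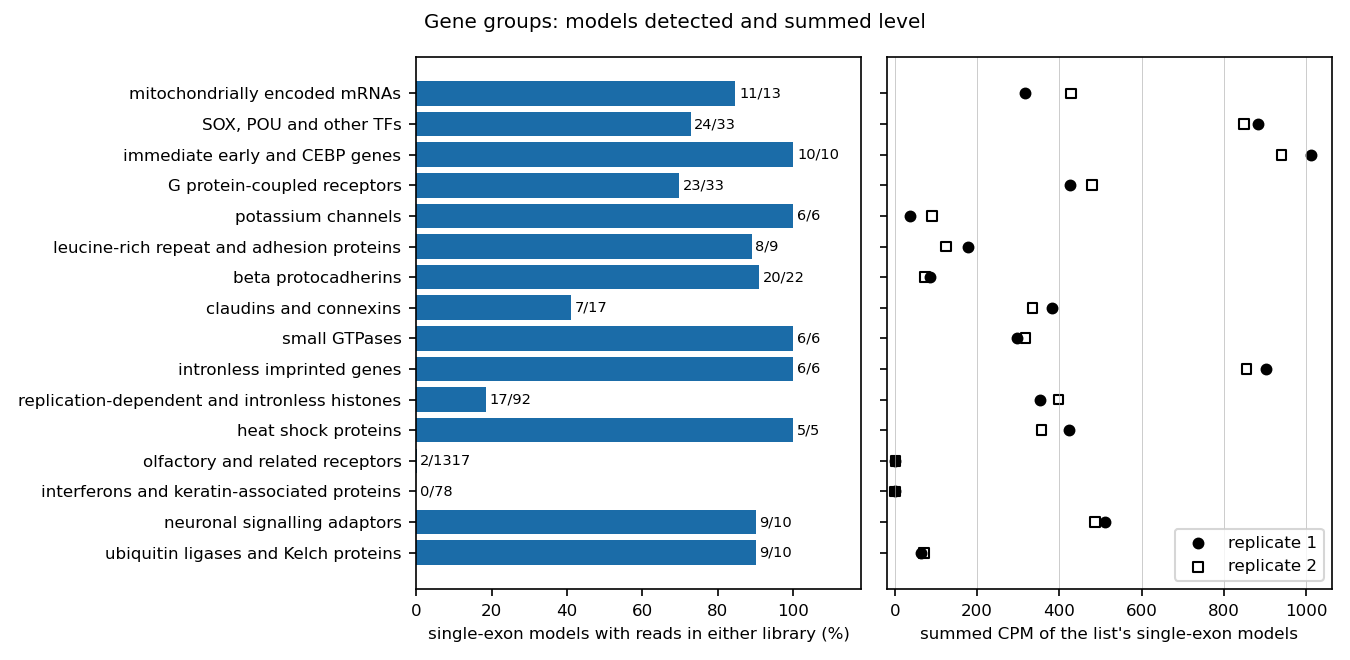
Share of each list's single-exon models with reads in either library (left, percent, with counts beside the bars) and summed level of the list in each library (right, CPM). Detection is complete for 5 lists, 2 of 1317 for the sensory receptors and 0 of 78 for interferons and keratin-associated proteins.

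The mRNAs of mitochondrial DNA are encoded without introns and encode subunits of the respiratory chain. Of 13 annotated models, 11 had reads, with 260 reads in replicate 1 and 318 in replicate 2 (372.0 CPM ± 78.4). mt-Co1 led with 116 and 122 reads (152.6 CPM ± 16.1), followed by mt-Cytb with 44 and 45. mt-Nd4l and mt-Nd6 had 0 reads, and mt-Nd3 and mt-Atp8 had at most 1 read in a library. These are the shortest of the 13 models, mt-Nd4l with 297 bases, mt-Nd6 with 519, mt-Nd3 with 348 and mt-Atp8 with 204. The model of mt-Nd4l overlaps that of mt-Nd4 on the same strand, and mt-Atp8 overlaps mt-Atp6. How reads were split within each pair is uncertain, so few reads on the shorter model need not mean that its sequence was absent. All 8 tested models had a log2 ratio above 0, against 48.6% of all 7012 annotated models tested, with a median of 0.59. They come from the same mitochondrial DNA in the same libraries, so they are not independent signs. Fisher's test called 0 of the 8, beside 1.06% of all annotated models tested. By the same test, mt-Nd4 (10 and 21 reads) and mt-Nd1 (18 and 30 reads) had unadjusted p of 0.0299 and 0.0428.

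Histone mRNAs were detected for few genes of the family. Of 92 models in the histone list, 17 had reads, 290 in replicate 1 and 296 in replicate 2. The stem-loop pattern was searched, on the transcript strand, in the 71 models of the Hist genes, H1f0, H1fx, H2afx and H2afj, which include all 17. The most abundant were Hist3h2a (75 and 66 reads, 90.02 CPM ± 1.83), H2afj (57 and 70), H2afx (53 in each), the linker histone H1f0 (37 and 50) and H1fx (26 and 16). Of 21 models with the stem-loop pattern within 60 bases of their end, 6 had reads, 29 and 27 in all. Of 24 whose model runs on for over 60 bases past the pattern, 6 had reads, 139 and 131 in all, and of 26 with no match 5 had reads, 122 and 138 in all. Most histone reads lay on models whose annotated end is not the stem-loop. Hist3h2a, whose stem-loop window is printed above, has 1703 bases after its coding sequence. The end of H1f0-201 (chr15:79030475-79030504) holds AATAAA, and that of H2afx-201 (chr9:44336048-44336077) does not:
H1f0-201, plus strand: aactttaaAATAAAactggaaaggaaaaaa
H2afx-201, plus strand: aggatcgtttggttttgtttttttaaaaaa

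The same pattern was found in 3 of 5021 other single-exon models of protein-coding genes (0.0597%). Hist2h2aa2 had 12 and 17 reads and Hist2h2aa1 had 15 and 5. Their coding sequences are identical, so the split of reads between them is uncertain. Of the Hsp70 genes, Hspa1a and Hspa1b share 99.5% of their coding bases, and their 12 and 7 and 18 and 8 reads carry the same doubt.

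Single-exon models of genes with annotated spliced models comprised 440 of the type retained intron, 125 coding models, 20 processed transcripts and 3 others. The coding models were fewer but held most reads, 2927 and 2569, against 1113 and 978 on retained introns. The highest was Eno1b-202, a copy of the enolase mRNA Eno1 on chromosome 18, with 446 reads in replicate 1 and 321 in replicate 2 (487.3 CPM ± 78.8). It was higher in replicate 1, with an unadjusted Fisher p of 0.00165 and an adjusted p of 0.104. By edits over the length of the shorter transcript, Eno1b-202 has 88.9% identity with Eno1-201, and Ftl1-ps1-202 has 96.6% with Ftl1-201, whose ferritin light chain mRNA it resembles. The 251 and 218 reads of Ftl1-ps1-202 (299.3 CPM ± 8.87) are uncertain for that reason.

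Hspa2, an Hsp70 chaperone, had 278 and 213 reads on Hspa2-202 (312.4 CPM ± 36.9). Atxn7l3b had 234 and 196 (274.2 CPM ± 15.1) and Nap1l5 237 and 185. Tspyl4, a neighbour of Tspyl1 on chromosome 10, had 141 and 137 (177.9 CPM ± 8.84), and Zbtb18, a zinc-finger repressor of cortical development, 79 and 105 (118.7 CPM ± 31.8). Of these only Zbtb18 and Tspyl4 were higher in replicate 2, and none passed the test, Zbtb18 with the lowest unadjusted p of these, 0.00977.

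For most genes with spliced models the single-exon models took little of the gene's output. Among 790 such genes with a single-exon model and at least 20 sense reads in each library, the median share was 0%, 500 genes had no single-exon read, 735 had a share under 10%, and 22 had at least 50%. In 16 of these the mean share over both libraries was 90% or more. Of the genes named next, the models of Eno1b and Hspa2 lie inside an exon of a spliced model, and their reads cannot be told apart from incomplete reads of it. All reads of Ftl1-ps1, H2afj and Rbm15b were single-exon. Eno1b reached 99.9% ± 0.158, Atxn7l3b 99.7% ± 0.359, Junb 99.5% ± 0.760, Nap1l5 98.3% ± 0.613 and Hspa2 96.1% ± 0.175 (SD, n = 2).

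A smaller set had a mixed output. Tspyl4 had a share of 86.9% ± 2.84, Prmt6, an arginine methyltransferase gene, 56.1% ± 2.76, Aak1, a kinase of clathrin adaptors, 50.9% ± 0.191, and Rnf208 42.6% ± 1.03. Ss18l2 differed most between the libraries in this set, with 40 of 89 reads in replicate 1 (44.9%, Wilson 95% interval 35.0 to 55.3) and 60 of 94 in replicate 2 (63.8%, 53.8 to 72.8). The intervals overlap only from 53.8 to 55.3%, and such an overlap is not a test of the difference. The within-gene Fisher test gave a p of 0.990 after adjustment over all models tested. Prmt6, Aak1, Rnf208 and Ss18l2 were chosen after their values were seen.

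**Figure D3:**
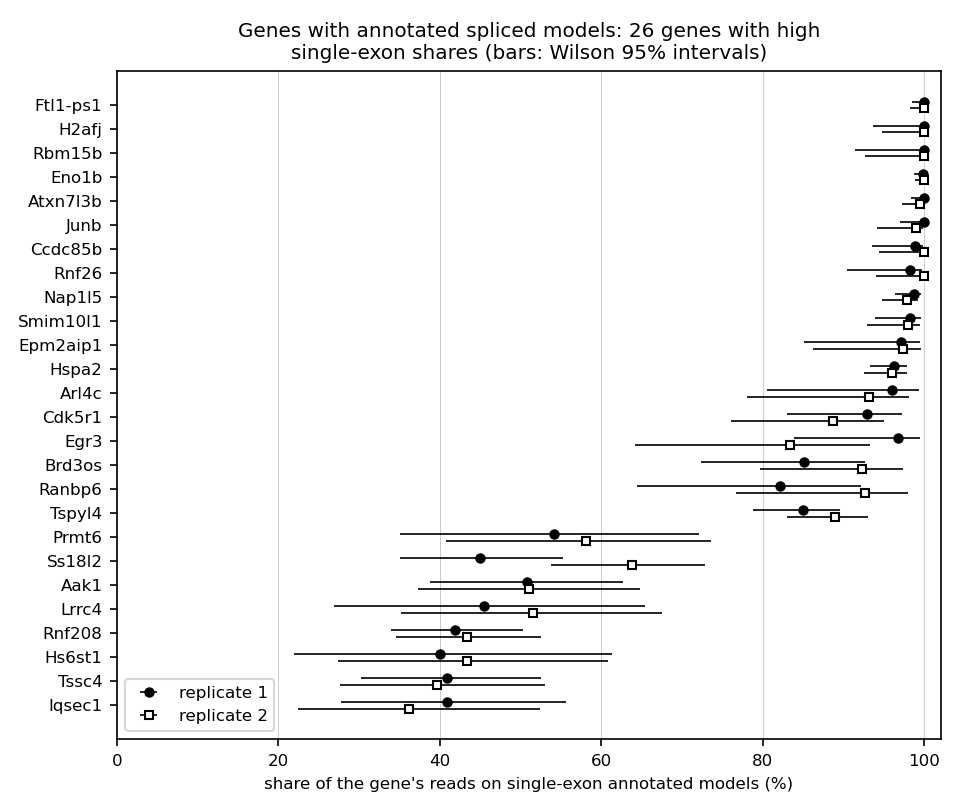
Share of a gene's sense reads on its single-exon annotated models, in percent, for 26 genes with annotated spliced models, at least 20 reads per library and a high mean share; bars are Wilson 95% intervals of each library. A group from Ftl1-ps1 down to Tspyl4 lies above 80% in both libraries, and the genes from Prmt6 down lie at 64% or less.

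Summed over all genes of the class, single-exon annotated models held 4.42% ± 0.134 of the sense reads, and spliced annotated models 67.0% ± 1.35. In genes with only new spliced models the single-exon models held 94.6% ± 0.666. Those new models were thinly covered: 73 models in 59 genes held 86 reads in replicate 1 and 90 in replicate 2, 12 were found in both libraries and 55 rested on a single read. Rtl8c was the exception among the 22 genes with enough reads. Its new model of 2 exons, of the class genomic (chrX:53608032-53608979) had 28 and 22 reads, against 2 and 4 on the annotated Rtl8c-201, a single-exon share of 8.11% ± 3.82. The next lowest was Gas1, a growth arrest gene, at 92.9% ± 1.24.

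Where the single-exon models lay in spliced genes was read from the exons of the annotated spliced models. Of 588, 246 covered at least 1 whole annotated intron (41.8%) and held 55.1% of the class's reads in replicate 1 and 58.2% in replicate 2. A further 27 lay inside an exon of a spliced model, with 800 and 602 reads, and a read of these cannot be told apart from an incomplete read of the longer transcript. The remaining 315 lay partly outside the exons without spanning an intron, with 1028 and 892 reads. The 3′ end of 152 (25.9%) lay within 100 bases of the 3′ end of a spliced model of the gene, and these held 46.6% and 48.1% of the reads.

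Retained introns with many reads came from genes of unlike function, among them Ss18l2, given above with 40 and 60 single-exon reads. Pgp-202 (2428 bases, chr17:24470435-24472862), from the gene of phosphoglycolate phosphatase, had 87 and 68 reads, 33.1% and 32.4% of the gene's reads. Cbx6-208, from a Polycomb gene, spans 7850 bases (chr15:79826100-79833949) and had 44 and 59 reads, 13.8% and 19.7%. Gnao1-212, from the gene of a G protein alpha subunit abundant in brain, had 51 and 43 reads, 18.0% and 20.4%. Slc25a22-221, from a mitochondrial glutamate carrier gene, had 37 and 28 reads, 12.1% and 12.7%. Pgp-202, Cbx6-208, Gnao1-212 and Slc25a22-221 each cover a whole annotated intron. Egr3-202 in an immediate early gene had 30 of 31 reads in replicate 1 and 20 of 24 in replicate 2, so that the model annotated as a retained intron held nearly all of that gene's reads. Gnao1-212, Slc25a22-221 and Egr3-202 were chosen after their values were seen.

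A polyadenylation signal was less common in retained introns than in the other types of member. AATAAA or ATTAAA was searched on the transcript strand in the last 40 bases of each annotated model with a sequence. It was present in 216 of 323 intronless members with reads (66.9%, Wilson 95% interval 61.6 to 71.8) and in 31.5% of the 1007 intronless models without reads. Single-exon coding models of spliced genes had it in 60.8% of the 125 with reads and 8.10% of the 1308 without. Of the coding models without reads in spliced genes, 1071 are of sensory receptors, and with that list left out, a step chosen after seeing the data, the share was 61.3% of 124 with reads and 21.5% of 237 without. Retained introns had it in 28.6% of the 440 with reads (24.6 to 33.0) and 16.6% of those without. The intervals of intronless and of coding members in spliced genes (52.0 to 68.9) overlap. Among members with at least 20 reads the signal was present in 66.2% of 130 intronless ones, 64.0% of 25 in genes with only new spliced models and 69.2% of 52 in genes with annotated spliced models. Retained introns were also the lower type among multi-exon models, with 71.1% of coding models and 36.3% of retained introns among those with reads. Matches are descriptions of the annotated ends, which may not be the ends of the reads: the lengths of all members equal those in GENCODE M21, and the files hold no read ends.

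**Figure D4:**
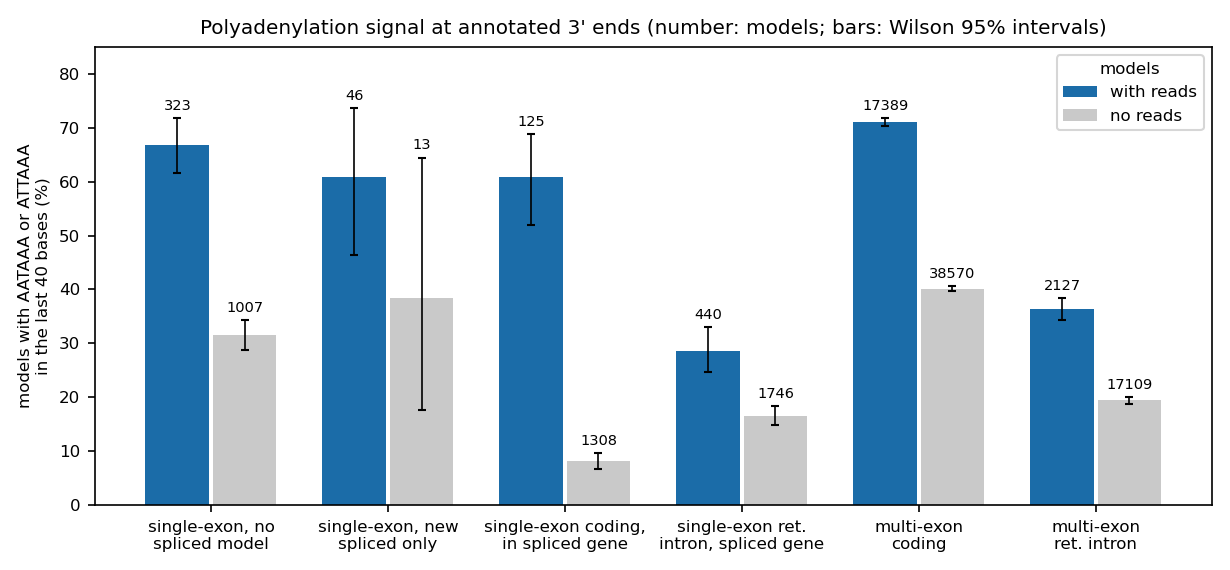
Share of annotated models with AATAAA or ATTAAA in their last 40 bases, in percent, for models with reads (blue) and without (grey), by type of model; numbers above the bars are models and bars show Wilson 95% intervals. The blue bar is higher in all 6 types, and both retained-intron types stay under 40%.

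Because a single-exon read has no splice junction to mark its strand or its origin, reads of overlapping models were counted for the 60 most abundant members. These had 8255 and 7306 reads of their own, 216 and 249 on models of the opposite strand, and 85 and 77 on other genes of the same strand. For 22 of the 60 there was no opposite-strand read in either library. In 0 were the opposite-strand reads at least as many as the member's own in both libraries. The 60 were picked for their many own reads, so this count cannot speak for members with few reads. Purb-201 had 58 and 78 opposite-strand reads beside 157 and 136 of its own. Single-exon models of the class genomic are not annotated transcripts. Of 1220 in replicate 1 and 1243 in replicate 2 in the same genes, 28 and 31 overlapped a member. In intronless genes all 7665 and 6987 reads were credited to annotated models and 0 to the class genomic. The way reads are assigned may thus fix such counts, and they do not speak to the origin of member reads. Whether a single-exon read came from mRNA, unspliced precursor or genomic DNA cannot be told apart in these files.

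The libraries were last compared member by member with Fisher's exact test, two-sided, on reads against all other mouse reads, adjusted by Benjamini-Hochberg over all 7012 annotated models with at least 20 reads. The p-values compare these libraries by counting error only. Calls made up 1.06% of these models, 0.342% being higher in replicate 2 and 0.713% being lower. Of 207 members tested, 1 was higher, 1 was lower and 205 did not pass, a share near that background. The unadjusted Fisher p was under 0.05 for 24 of the 207, beside 648 of the 6805 other annotated models tested. Kcnf1, a modifying subunit of voltage-gated potassium channels, was counted 8 times in replicate 1 against 28 times in the other library (9.74 and 37.6 CPM), a log2 ratio of 1.89 with an adjusted p of 0.0322 by Fisher's exact test. Nrarp, a feedback inhibitor of Notch signalling, had 114 and 55 reads (138.8 and 73.9 CPM), a log2 ratio of -0.90 with an adjusted p of 0.0130 by the same exact test. Both are intronless. With no minimum of reads, 23989 models were tested, and the adjusted p by Fisher's exact test was 0.110 for Kcnf1, which then no longer passed, and 0.0443 for Nrarp. Nrarp stood in the list of leucine-rich repeat and adhesion proteins, although it is an ankyrin repeat protein.

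The median absolute log2 ratio was 0.29 over the 207 tested members and 0.26 over the 6805 other annotated models tested. Across models with at least 10 reads, Pearson's r of log2 CPM between the libraries was 0.904 over 167 intronless members, 0.931 over 33 in genes with only new spliced models, 0.897 over 87 in genes with annotated spliced models and 0.937 over 9113 multi-exon models. These are descriptions across models of the same libraries, and models are not independent replicates. Within genes, the single-exon share was compared for 322 members among 12375 models tested, of which 0.17% were called. Fisher's exact test called 0 of the 322. Its unadjusted p was under 0.05 for 5 of them, beside 442 of the 12053 other annotated models tested.

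**Figure D5:**
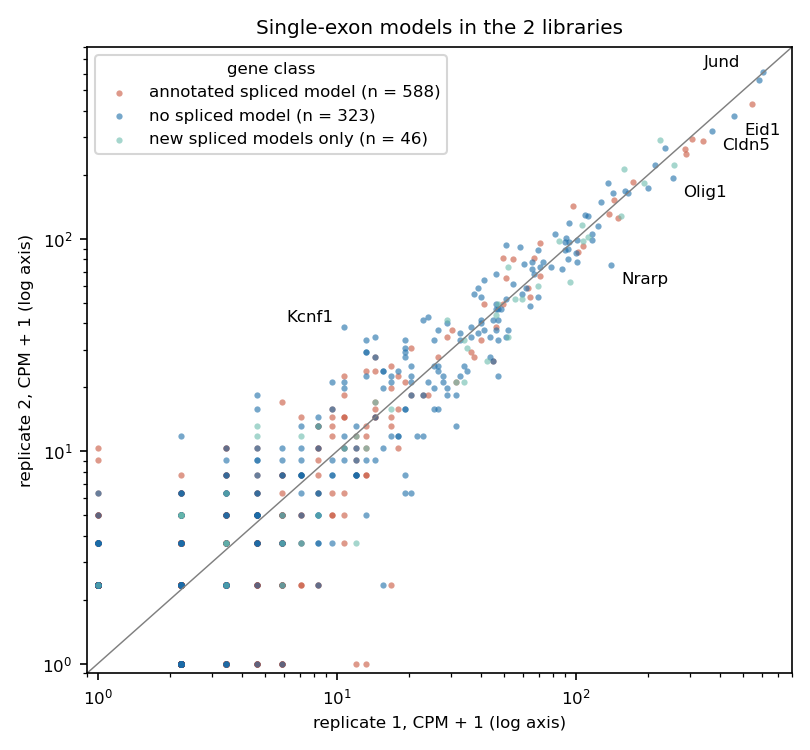
Level of each of the 957 single-exon members in replicate 1 (horizontal) and replicate 2 (vertical), as CPM + 1 on log axes, coloured by gene class, with the line of equality. Abundant members such as Jund and Cldn5 lie close to the line, Nrarp lies below it and Kcnf1 above it, and the rows of points at the lower left are models with a few reads.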

How the data were processed

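Per the file headers and the values, the authors deposited raw read counts per transcript model, with the exon number, length and exon positions of each model on mm10 and GENCODE M21. Which aligner and caller they used is not given in the sources used here. Reads on ERCC spike-ins (832263 and 753385 reads in all with them) were left out. Of 5105 annotated single-exon models, 5092 had a GENCODE sequence. CPM, log2 ratios (0.5 reads added to each count), Wilson intervals at 95% and Fisher's exact tests (threshold 0.05, at least 20 reads over both libraries, or 20 gene reads in each for shares within genes) were computed in Python 3.11.15 with scipy 1.17.1 and pandas 2.3.3. Coding identity came from edlib 1.3.9.post1, and alternative library sizes from TMM in edgeR 4.0.16. The Fisher script was tested on simulated data. Amplified reads are not independent molecules, so intervals and the floor of 3 reads reflect counting error alone.

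The members and the 16 gene lists were chosen with earlier results of these data known. Named genes were the 15 highest nuclear members of each kind (intronless by annotation, or in spliced genes), mitochondrial mRNAs, the 4 highest of each list and up to 4 at 0, the 5 largest called ratios each way, the 5 longest with at least 20 reads, and, at 50 gene reads or more per library, the 5 extreme single-exon shares. Other members named in the report were picked after their values were seen. A member and a marker that these rules take are not reported here, and they still count in the totals.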

Additional observations from a re-analysis of the deposited data

How the results depend on the processing

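Counts of members in genes with annotated spliced models depended on the minimum, 254 with at least 3 reads and 284 with reads in both libraries in place of 588. The intronless share of mouse reads became 1.155% with new spliced models ignored, 0.8995% without mitochondrial genes and 0.9242% with spike-ins in the denominator, and of annotated reads 1.798% and 1.401% under the first and second of these. With spike-ins, Jund-201 was at 598.8 CPM and Pou3f1-201 at 161.4, and the other 87 levels moved by less than their SD. TMM sizes moved 0 of 89. With no minimum of reads, under which more models were tested, 1 of the 2 called members remained (Nrarp); with at least 10 reads or TMM sizes both did. Summed over genes with at least 20 reads, the single-exon share in spliced genes was 4.193% of all sense reads and 5.755% of annotated reads, and 4.079% to 4.308% in the libraries taken singly. With AATAAA alone the signal was present in 56.04% of intronless members, 47.2% of coding and 22.27% of retained-intron members in spliced genes, and 57.44% and 29.48% of multi-exon coding and retained-intron models, and in 73.02% of multi-exon coding models with the last 50 bases. Leaving out sensory receptors, chosen after seeing the data, gave 323 and 586 members with reads and a signal in 66.87% and 61.29% of intronless and coding members. A content downstream of the ends was not run, since no genome sequence was used here. No paired analysis was possible because there is a single group. Depth limits the members most in spliced genes, where 247 of 588 rest on 1 read, and members under 20 reads were not compared one by one.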
